A study of Homo sapiens with 18 samples.

Results

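Interferon-stimulated genes and nucleic acid sensors are represented here by 9 of the 3074 genes in the table: the effectors ISG15, MX1, OAS2, RSAD2 and TRIM22, the transcription factor STAT2, and the sensors and adaptor IFI16, TLR3 and TMEM173 (the gene of STING). They were chosen by name, and all 9 were found. The cells were SJSA-1, an established human osteosarcoma line that carries an MDM2 amplification and wild-type p53. All 6 groups shared the line and a vehicle or drug schedule of 72 h, with 3 libraries each. The DMSO group received vehicle throughout. The NCS group received neocarzinostatin, a radiomimetic that breaks both strands of DNA, at 1 µg/mL, renewed after 48 h. The MI-1061 and MD-224 groups received vehicle and then 1 µM of the compound for the last 24 h, and the NCS + MI-1061 and NCS + MD-224 groups received NCS, renewed together with 1 µM of the compound for those 24 h. MI-1061 is a small molecule that occupies the p53-binding pocket of MDM2. MD-224 is a degrader in which a ligand of MDM2 is joined through a linker to a ligand of the E3 ligase subunit cereblon. The series title names MDM2, RNA polymerase III and the innate response to cytosolic DNA as its subject.

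Cells recognise misplaced nucleic acid through receptors that differ in location and ligand. TLR3 binds double-stranded RNA in endosomes, IFI16 binds DNA, and STING sits in the endoplasmic reticulum and relays the cyclic dinucleotide made by cGAS when it meets cytosolic DNA. These routes lead to type I interferon, whose receptor activates a transcription factor complex with STAT2 that binds interferon-stimulated response elements (ISRE) in the promoters of effector genes. Among those effectors, ISG15 is a ubiquitin-like modifier, MX1 a dynamin-like GTPase that traps viral nucleocapsids, OAS2 a synthetase of 2′-5′ oligoadenylates that activate RNase L, RSAD2 (viperin) a radical SAM enzyme, and TRIM22 an E3 ligase. TRIM22, TLR3 and IFI16 are also known as p53 target genes, and MDM2 inhibitors raise p53.

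Poly(A)-selected RNA was sequenced, and the values are normalised counts, which the authors obtained by scaling the reads of each library. The lowest ratio of the NCS + MI-1061 mean to the DMSO mean among the listed genes was 1.75-fold and the median was 3-fold. How the genes were chosen is not given in the sources used here, and since each was higher in that contrast, it is not tested. Calls between other groups are set against the share of all listed genes called the same way. Most of those comparisons reuse the DMSO libraries, low in that contrast for each listed gene, or the NCS + MI-1061 libraries, high in it. Their folds and adjusted p-values may carry this lean, which was not corrected. Only MD-224 after NCS, MD-224 against MI-1061 and NCS with MD-224 compare neither group. Listed values summed to 4594460 to 17252589 per library, which is not the depth, since the table holds part of each library. Where read counts could be recovered, the 9 genes had at least 38 reads per library, apart from RSAD2 with 2 to 652. MDM2, which is both the target of the compounds and a p53 target gene, averaged 135100 ± 25710 (SD, n = 3) in DMSO and 1572000 ± 337400 with MI-1061, and CDKN1A, the p53 target that encodes p21, averaged 11840 ± 1583 and 354700 ± 9038. With MD-224 both were above DMSO but below MI-1061, at 407800 ± 63780 for MDM2 and 90720 ± 11510 for CDKN1A. After NCS, MDM2 averaged 832800 with MD-224 and 2460000 with MI-1061, and CDKN1A 312000 and 712600. These levels follow the labels but check neither the binding nor the loss of MDM2 protein. Nothing in the labels says that the 3 libraries of a group came from separate cultures, so p-values rest on the spread between these libraries. In the main fit that spread is pooled over all 6 groups, not taken from the compared groups alone. Fewer cells of a kind and less RNA per cell cannot be told apart in such bulk samples.

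All 9 are protein-coding genes (GRCh38, GENCODE 29): ISG15 at chr1:1001138-1014540, MX1 at chr21:41420304-41459214, OAS2 at chr12:112978395-113011723, STAT2 at chr12:56341597-56360155, RSAD2 at chr2:6865806-6898239, TRIM22 at chr11:5689689-5737089, TMEM173 at chr5:139475534-139482935, IFI16 at chr1:158999968-159055155 and TLR3 at chr4:186069152-186088069. STAT2 and TMEM173 lie on the minus strand and the others on the plus strand. Of the exon bases of TRIM22, 10.7% also lie in exons of OR56B1 on the same strand, and 3.83% of those of ISG15, 2.74% of those of MX1 and 0.290% of those of RSAD2 lie opposite exons of another gene. How the counting treated strand is not given in the sources used here, so reads of such bases cannot be assigned with certainty.

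The promoters of ISG15 and RSAD2 are printed because they hold GAAA repeats. Those of ISG15 match the letters searched for as an ISRE, GAAANNGAAA, and those of RSAD2 do not. Windows of 250 bases before the start site were found in RefSeq (GRCh38.p14) for 6 of the 9 genes: ISG15, MX1, STAT2, RSAD2, IFI16 and TLR3. These starts differ from the ends of the GENCODE spans above. The windows of ISG15, MX1 and IFI16 lie inside those spans, and the windows of STAT2, RSAD2 and TLR3 overlap them. Other start sites of these genes were not searched. The ISG15 window is chr1:1013247-1013496 and the RSAD2 window is chr2:6865635-6865884, both on the plus strand and printed 5′ to 3′, with the repeats in capitals.
ISG15: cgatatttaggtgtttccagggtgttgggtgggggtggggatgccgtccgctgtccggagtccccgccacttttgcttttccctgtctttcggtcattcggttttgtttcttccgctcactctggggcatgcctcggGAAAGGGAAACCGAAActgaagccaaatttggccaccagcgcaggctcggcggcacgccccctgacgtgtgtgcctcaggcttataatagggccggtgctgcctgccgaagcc
RSAD2: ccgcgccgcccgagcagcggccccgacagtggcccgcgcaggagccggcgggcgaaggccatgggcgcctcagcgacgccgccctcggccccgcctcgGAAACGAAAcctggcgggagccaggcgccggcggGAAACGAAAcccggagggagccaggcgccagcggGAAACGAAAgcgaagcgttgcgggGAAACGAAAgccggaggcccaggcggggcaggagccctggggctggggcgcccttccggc
The letters GAAANNGAAA, searched on both strands, occurred in 3.02% of 35116 RefSeq windows of this length and, among the 6, in ISG15 alone. There they occurred at 2 overlapping places, GAAAGGGAAA from 113 to 104 and GAAACCGAAA from 107 to 98 bases before the start. A p53 half-site, present in 5.57% of windows, lay just upstream in ISG15, from 126 to 117 bases before the start. RSAD2 had a shorter repeat, GAAACGAAA, with fewer bases between the GAAA units, which is not a match to GAAANNGAAA. It lay at 4 places, starting 152, 118, 84 and 60 bases before the start. This shorter repeat was chosen after the RSAD2 sequence was read, and 50 of the 35116 windows (0.142%) held it on either strand. The letters TTCNNNGAA were in 6.57% of windows and, among the 6, in TLR3 alone, at 178 to 170 and 50 to 42 bases before the start. A match describes the letters only, and a window without a match leaves the other start sites of that gene unread.

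The ranges of the 9 genes differed widely between groups and between libraries. STAT2, the factor that passes the interferon signal to the genome, read 2134, 2437 and 2668 normalised counts in DMSO, 4333, 4534 and 3926 with MI-1061, and 4627, 5594 and 5002 with MD-224. With NCS its libraries held 4828, 5565 and 5201, with NCS + MI-1061 8559, 9627 and 8610, and with NCS + MD-224 6418, 6437 and 5807. The 3 NCS + MI-1061 libraries were the highest of all 18 and the 3 DMSO libraries the lowest. The means, in rising order, were DMSO, MI-1061, MD-224, NCS, NCS + MD-224 and NCS + MI-1061, and of these neighbours only MD-224 and NCS overlapped.

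TMEM173, which encodes STING, had 2105, 1886 and 1962 in DMSO, 2608, 2943 and 2773 with MI-1061, and 2634, 3310 and 3228 with MD-224. It had 3449, 3663 and 4017 with NCS, 7901, 10210 and 7594 with NCS + MI-1061, and 4101, 3758 and 3857 with NCS + MD-224. As for STAT2, the NCS + MI-1061 libraries stood above the other 15 and the DMSO libraries below them. NCS + MI-1061 stood above every other library for 44.7% of all listed genes, each of which has a higher mean there than in DMSO, and DMSO stood below every other library for 25.1%. The MI-1061 and MD-224 groups overlapped each other, as did NCS and NCS + MD-224.

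IFI16, the DNA-binding sensor, had 4629, 8345 and 6576 in DMSO, 9303, 14720 and 12960 with MI-1061, and 6907, 7549 and 8074 with MD-224. Its NCS libraries had 6554, 7564 and 7003, those with NCS + MI-1061 11440, 12380 and 11300, and those with NCS + MD-224 7908, 8348 and 7794. The 6 libraries that received MI-1061 lay above the other 12. Among the 4 groups of those 12, DMSO and MD-224 each overlapped the other 3, while the NCS + MD-224 libraries lay above those with NCS. TLR3, the endosomal receptor, had 532, 561 and 528 in DMSO, 810, 1208 and 873 with MI-1061, and 812, 852 and 818 with MD-224. It had 626, 722 and 703 with NCS, 1094, 1882 and 1258 with NCS + MI-1061, and 741, 1123 and 625 with NCS + MD-224. DMSO libraries were again the lowest, and the 4 groups with a compound formed an overlapping series above NCS alone, although 1 NCS + MD-224 library lay just below the lowest with NCS.

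TRIM22 was ordered by compound rather than by NCS. It read 2162, 3225 and 3275 in DMSO, 13680, 15260 and 17440 with MI-1061, and 9359, 10210 and 10330 with MD-224. Its NCS libraries held 4877, 5386 and 4937, those with NCS + MI-1061 16080, 18090 and 14940, and those with NCS + MD-224 10260, 10130 and 7321. The MI-1061 group overlapped NCS + MI-1061 and the MD-224 group overlapped NCS + MD-224, while DMSO, NCS, the MD-224 pair and the MI-1061 pair were apart from each other.

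ISG15, MX1, OAS2 and RSAD2 spread more within groups. ISG15 had 815, 1189 and 945 in DMSO, 978, 1627 and 1217 with MI-1061, and 1275, 1838 and 1496 with MD-224. It had 1298, 2017 and 1638 with NCS, 1763, 3552 and 2282 with NCS + MI-1061, and 1552, 2016 and 2258 with NCS + MD-224. Each neighbouring pair of groups in the order of means overlapped. MX1 had 634, 1163 and 853 in DMSO, 656, 1009 and 719 with MI-1061, and 890, 1777 and 1118 with MD-224. In the NCS groups MX1 had 1212, 2737 and 2013 with NCS alone, 1526, 3382 and 2015 with NCS + MI-1061, and 2054, 2913 and 4399 with NCS + MD-224. Its neighbouring groups overlapped too, and its lowest mean was that of MI-1061.

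OAS2, the oligoadenylate synthetase, had 55.8, 167 and 123 in DMSO, 48.9, 91.1 and 58.4 with MI-1061, and 119, 300 and 150 with MD-224. Its values were 296, 609 and 449 with NCS, 119, 547 and 184 with NCS + MI-1061, and 297, 538 and 685 with NCS + MD-224. The NCS and NCS + MD-224 libraries lay above the DMSO libraries, whereas 1 of the NCS + MI-1061 libraries lay within the DMSO range. RSAD2 was the least abundant, with 2.19, 30.8 and 4.09 in DMSO (2, 32 and 4 reads), 11.6, 26.4 and 21.5 with MI-1061, and 6.88, 20.6 and 16.8 with MD-224. It had 31.4, 133 and 107 with NCS, 48.8, 146 and 37.3 with NCS + MI-1061, and 134, 189 and 660 with NCS + MD-224. The 9 libraries without NCS lay below the 9 with it, and the highest value, in NCS + MD-224 replicate 3, stood far above the other 17.

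**Figure D1:**
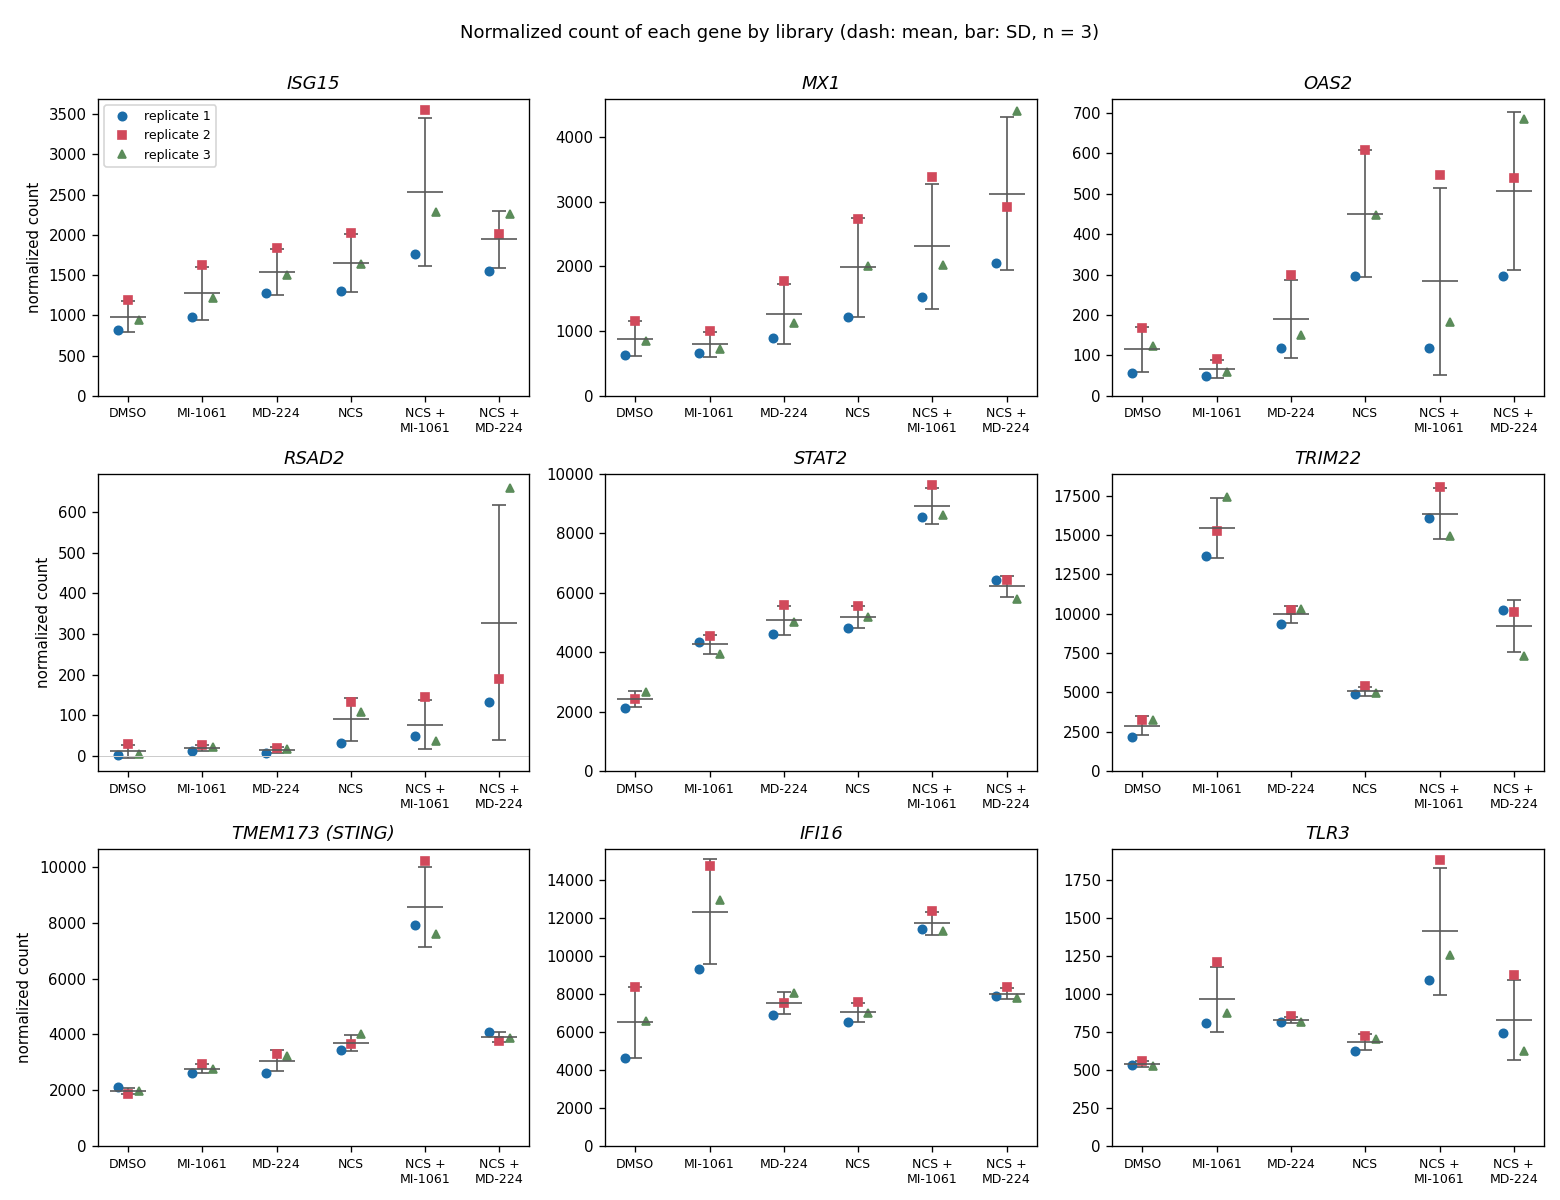
Normalised count (vertical axis) of each of the 9 genes in each of the 18 libraries by group (horizontal axis), with markers for replicates 1, 2 and 3, a dash for the mean and bars for the SD (n = 3). STAT2 and TMEM173 are highest in the 3 NCS + MI-1061 libraries, TRIM22 separates by compound, and OAS2, RSAD2 and MX1 spread widely within the NCS groups.

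Levels between genes were compared per kilobase of exon. In DMSO, IFI16 (1231 normalised counts per kilobase) and ISG15 (1045) were the most abundant of the 9, followed by TMEM173 (515), TRIM22 (480) and STAT2 (395). MX1 (103), TLR3 (80.4), OAS2 (18.4) and RSAD2 (2.55) were the least abundant. With NCS + MI-1061, TRIM22 reached 2720 per kilobase, next to ISG15 (2691), TMEM173 (2226) and IFI16 (2212), and RSAD2 stayed lowest at 16.0. These are means of 3 libraries, and the exon lengths include every annotated isoform.

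NCS alone raised 7 of the 9 genes over DMSO, where 54.0% of all tested genes rose. Their median log2 difference was 0.90 for the 9 and 0.66 for all 3073 tested genes. RSAD2 rose 9.69-fold (95% interval 2.98 to 31.5, adjusted p = 0.00295, limma on log2(value + 1) with Benjamini-Hochberg adjustment over all tested genes, as for each adjusted p that follows) and OAS2 4.10-fold (1.90 to 8.84, adjusted p = 0.00410). MX1 rose 2.20-fold (adjusted p = 0.0138), STAT2 2.16-fold (1.83 to 2.54, adjusted p = 9.96e-07), TMEM173 1.87-fold (adjusted p = 2.52e-05), TRIM22 1.78-fold (adjusted p = 0.000389) and ISG15 1.67-fold (adjusted p = 0.0205). TLR3 was at 1.26-fold (adjusted p = 0.194) and IFI16 at 1.11-fold (adjusted p = 0.478). All 3 NCS libraries lay above all 3 DMSO libraries for 8 of the 9, IFI16 being the exception, and for 58.7% of all genes.

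The NCS response was uneven in its support. The ISG15 call was lost without NCS replicate 2 (log2 difference 0.59, adjusted p = 0.0950), NCS replicate 3 (0.74, 0.0505), DMSO replicate 1 (0.62, 0.0758) or DMSO replicate 3 (0.72, 0.0520), and the MX1 call without NCS replicate 2 (0.87, 0.0752) or DMSO replicate 1 (0.92, 0.0592). RSAD2 stayed called, with a log2 difference of 3.28 that became 3.91 without NCS replicate 1, 2.61 without DMSO replicate 1 and 4.27 without DMSO replicate 2. IFI16 turned to -0.08 without DMSO replicate 1. Rescaling the libraries on the listed genes with TMM lowered the median of all genes by 0.60 (a shift of -0.60), and left STAT2 (log2 difference 0.50, adjusted p = 0.00274) and RSAD2 (2.77, 0.0176) called, 2 of 9, with 0 lower, while IFI16 (-0.46) and TLR3 (-0.28) changed direction. Of all 3073 tested genes, 455 were then higher and 468 lower.

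MI-1061 alone raised 5 of the 9 genes over DMSO, against 67.6% of all tested genes, and lowered 0, against 4.46%, with 0 lower at an unadjusted p under 0.05 and 0 with edgeR or DESeq2 on recovered reads. TRIM22 rose most, 5.42-fold (4.30 to 6.83, adjusted p = 8.65e-10). The sensors rose with it, IFI16 1.91-fold (1.48 to 2.47, adjusted p = 0.000141), TLR3 1.76-fold (adjusted p = 0.00287) and TMEM173 1.4-fold (adjusted p = 0.00223), as did STAT2, 1.77-fold (1.5 to 2.08, adjusted p = 4.32e-06). The effectors other than TRIM22 did not pass: ISG15 was at 1.28-fold (adjusted p = 0.210), MX1 at 0.911-fold (adjusted p = 0.746), OAS2 at 0.613-fold (adjusted p = 0.235) and RSAD2 at 2.47-fold (0.759 to 8.02, adjusted p = 0.154). On the log2 scale the median difference was 0.81 for the 9 genes and 1.00 for all.

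With the replicate number as a block, ISG15 also rose (adjusted p = 0.0171) and OAS2 fell (log2 difference -0.71, adjusted p = 0.0302). Without DMSO replicate 2, which held 32 of the RSAD2 reads, RSAD2 rose by a log2 difference of 2.30 (adjusted p = 0.0115) and MX1 stood at 0.09, and without DMSO replicate 1 RSAD2 stood at 0.64. After TMM rescaling, which shifted the median of all genes by -0.99, only TRIM22 stayed higher (1.45, adjusted p = 6.74e-07). There TMEM173 (-0.51), ISG15 (-0.63), MX1 (-1.13) and OAS2 (-1.69) were called lower, 4 of 9, and STAT2 (-0.17), IFI16 (-0.06) and TLR3 (-0.18) changed direction without a call. This rescaling, which centres the listed genes, called 942 of all 3073 tested genes higher and 923 lower.

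MD-224 alone raised 5 of the 9 genes over DMSO, against 39.9% of all tested genes. TRIM22 rose 3.51-fold (2.78 to 4.42, adjusted p = 3.56e-07), STAT2 2.10-fold (1.79 to 2.48, adjusted p = 2.40e-06), TMEM173 1.53-fold (adjusted p = 0.000889), TLR3 1.53-fold (adjusted p = 0.0308) and ISG15 1.56-fold (adjusted p = 0.0490). MX1 (1.41-fold, adjusted p = 0.275), OAS2 (1.67-fold, 0.270), RSAD2 (1.80-fold, 0.415) and IFI16 (1.18-fold, 0.278) did not pass, and MX1 (0.0388) and OAS2 (0.0368) did with the replicate block. The median log2 difference was 0.64 for the 9 genes and 0.48 for all. The 3 comparisons with DMSO share its libraries, so their values stand side by side and are not independent.

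ISG15 and TLR3 sat near the threshold. The ISG15 call was lost without MD-224 replicate 2 (0.51, adjusted p = 0.166) or replicate 3 (0.66, 0.0919), and without DMSO replicate 1 (0.52, 0.150) or replicate 3 (0.63, 0.103). It was also lost with a pseudocount of 5 (0.64, 0.05) and with edgeR on recovered reads (0.64, 0.0583). The TLR3 call was lost without MD-224 replicate 1 (0.63, 0.0547), 2 (0.59, 0.0712) or 3 (0.62, 0.0644), or DMSO replicate 1 (0.60, 0.0636) or 3 (0.60, 0.0708), while IFI16 gained one without DMSO replicate 2 (0.44, 0.0471). TMM rescaling, with a median shift of -0.49, left STAT2 (0.58, adjusted p = 0.00119) and TRIM22 (1.32, 2.02e-05) called, 2 of 9 with 0 lower, and turned IFI16 to -0.25. Among all 3073 tested genes it called 327 higher and 357 lower.

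**Figure D2:**
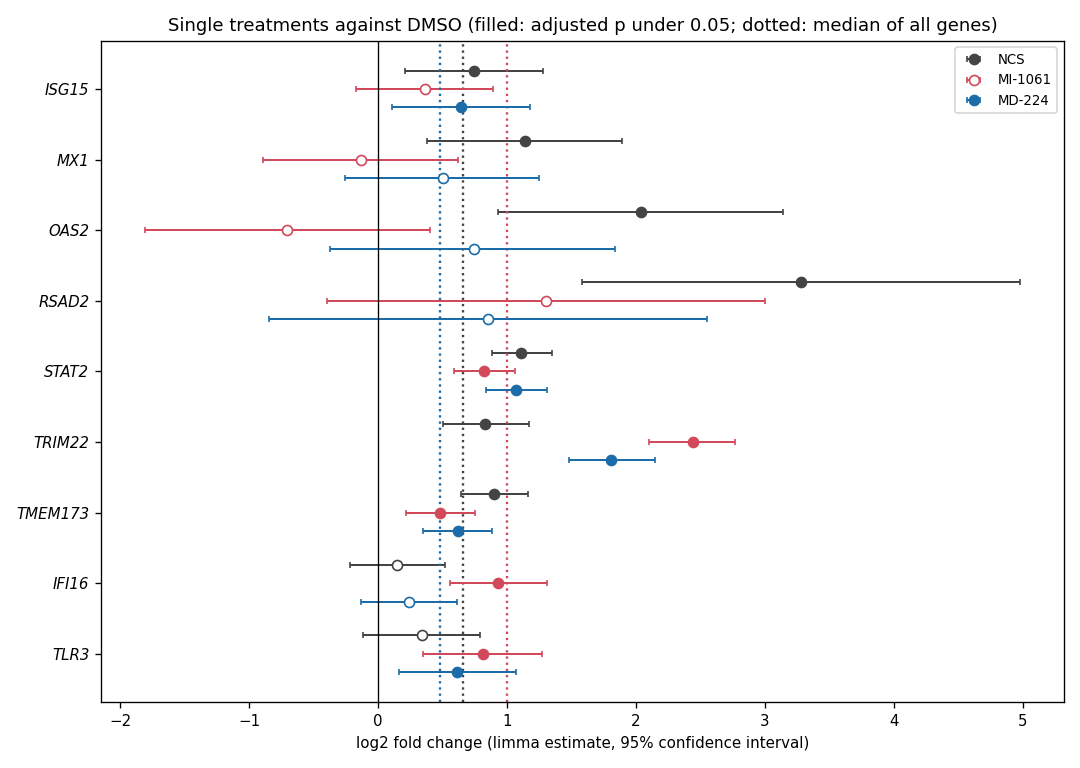
Log2 fold change (horizontal axis, limma estimate with 95% interval) of each gene (vertical axis) for NCS, MI-1061 and MD-224 against DMSO; filled points have an adjusted p under 0.05 and dotted lines mark the median of all tested genes (0.66, 1.00 and 0.48). RSAD2 and OAS2 are farthest right with NCS, and TRIM22 with both compounds.

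Added to NCS, MI-1061 raised 6 of the 9 genes over NCS alone, against 70.5% of all tested genes, and lowered 0, against 0.748%, with 0 lower at an unadjusted p under 0.05. TRIM22 rose 3.22-fold (2.56 to 4.06, adjusted p = 5.90e-08), TMEM173 2.29-fold (1.91 to 2.75, adjusted p = 1.99e-07), TLR3 2.01-fold (1.47 to 2.76, adjusted p = 0.000525), STAT2 1.72-fold (1.46 to 2.02, adjusted p = 7.98e-06) and IFI16 1.66-fold (1.29 to 2.15, adjusted p = 0.00132). ISG15 rose 1.49-fold (1.03 to 2.16, adjusted p = 0.0499), with libraries that overlapped. MX1 (1.16-fold, adjusted p = 0.609), RSAD2 (0.843-fold, 0.795) and OAS2 (0.530-fold, 0.246 to 1.14, 0.128) did not pass. Their median log2 difference was 0.73 for the 9 genes and 0.97 for all.

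The OAS2 libraries with NCS + MI-1061 were split, with replicate 2 at 547 and the others at 119 and 184. OAS2 fell by 1.54 on the log2 scale without that library (adjusted p = 0.0125) and by 0.91 with the replicate block (adjusted p = 0.00733). The ISG15 call was lost without NCS + MI-1061 replicate 2 (0.30, adjusted p = 0.292) or 3 (0.62, 0.0700), or NCS replicate 1 (0.42, 0.198) or 3 (0.58, 0.0899). The sign of the uncalled MX1 difference turned (-0.10) without NCS + MI-1061 replicate 2 or NCS replicate 1, and that of RSAD2 (0.14 and 0.15) without NCS + MI-1061 replicate 3 or NCS replicate 2. With TMM rescaling, a median shift of -0.99, TRIM22 was called higher (0.69, adjusted p = 0.00165) and OAS2 lower (-1.90, 0.00787), 1 of 9 each, and ISG15 (-0.42), MX1 (-0.78), STAT2 (-0.21) and IFI16 (-0.26) changed direction. Of all 3073 tested genes, 733 were higher and 592 lower on that scale.

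Added to NCS, MD-224 raised TRIM22 alone, 1 of the 9 genes, against 15.1% of all tested genes. TRIM22 rose 1.80-fold (1.43 to 2.27, adjusted p = 0.00134). RSAD2 was at 3.31-fold (1.02 to 10.7, adjusted p = 0.165), MX1 at 1.58-fold (0.236) and STAT2 at 1.2-fold (0.129), while TMEM173 was at 1.05-fold (0.709). All NCS + MD-224 libraries lay above all NCS libraries for 4 genes, TRIM22, RSAD2, STAT2 and IFI16, and for 40.8% of all genes. On the log2 scale the median difference was 0.24 for the 9 and 0.30 for all.

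The replicate block added MX1 (adjusted p = 0.0189) and RSAD2 (0.0397), for 3 of 9 higher. It called 755 of all 3073 tested genes higher. RSAD2 had a log2 difference of 1.73, which became 1.04 without NCS + MD-224 replicate 3 and 1.09 without NCS replicate 1. With TMM rescaling, a median shift of -0.32, 0 of the 9 were called, TRIM22 standing at 0.52 (adjusted p = 0.0741), and STAT2 turned to -0.07. Among all 3073 tested genes 116 were then called higher and 6 lower.

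**Figure D3:**
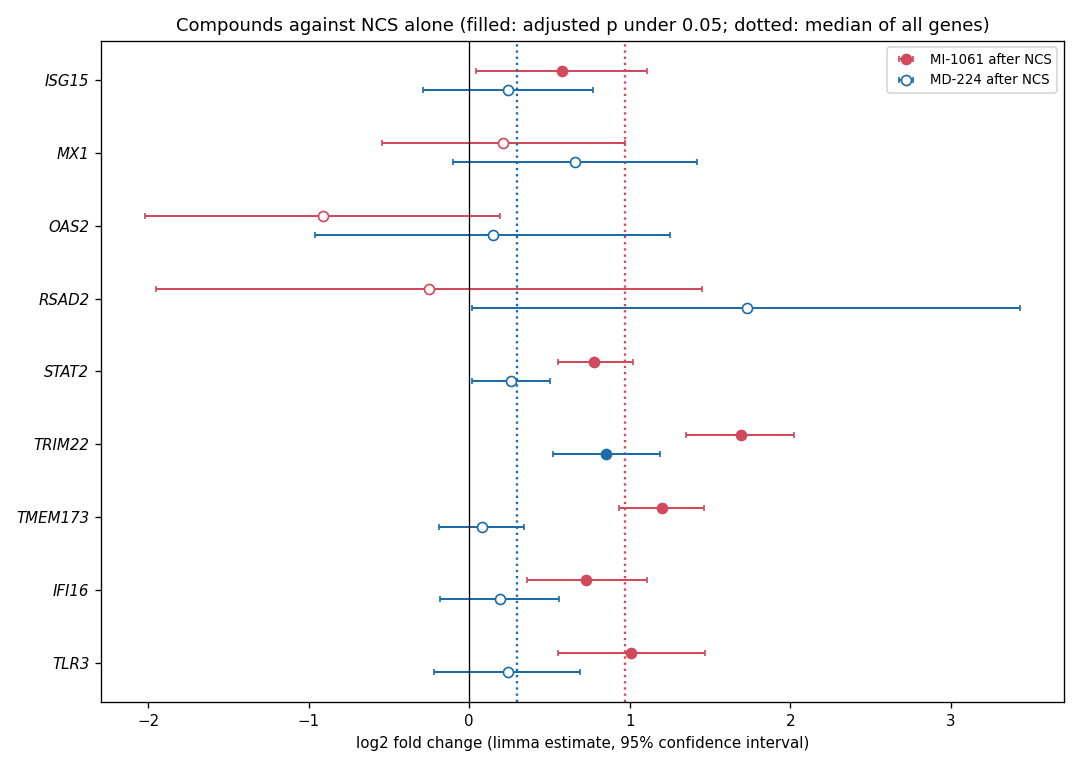
Log2 fold change (horizontal axis, limma estimate with 95% interval) of each gene (vertical axis) for NCS + MI-1061 and NCS + MD-224 against NCS alone; filled points have an adjusted p under 0.05 and dotted lines mark the median of all tested genes (0.97 and 0.30). MI-1061 has 6 filled points and MD-224 has 1, TRIM22.

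The compounds were compared directly at 1 µM and 24 h, over 9 genes in each of 2 settings, with adjustment over all tested genes of each setting. At this dose and time the p53 targets MDM2 and CDKN1A were also lower with MD-224 than with MI-1061 in both settings, as given above. Without NCS, OAS2 was 2.71-fold higher with MD-224 than with MI-1061 (1.26 to 5.85, adjusted p = 0.0243), against 12.4% of all tested genes higher. TRIM22 was lower with MD-224, at 0.647-fold (0.514 to 0.816, adjusted p = 0.00252), and so was IFI16, at 0.619-fold (0.479 to 0.801, adjusted p = 0.00269), against 49.8% of all tested genes lower. For the other 6 the test was not passed and the intervals were 0.841 to 1.77-fold for ISG15, 0.917 to 2.62 for MX1, 1.01 to 1.4 for STAT2 (adjusted p = 0.0615), 0.225 to 2.37 for RSAD2, 0.915 to 1.32 for TMEM173 and 0.635 to 1.2 for TLR3. The median log2 difference was 0.13 for the 9 genes, where that of all genes was -0.58.

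The OAS2 difference rested on few libraries. Its call was lost without MD-224 replicate 2 (1.05, adjusted p = 0.117), MI-1061 replicate 1 (1.25, 0.0793) or MI-1061 replicate 3 (1.38, 0.0645). STAT2 was called higher with MD-224 without MD-224 replicate 1 (0.31, 0.0377), and with the replicate block, which also called MX1 (0.00791), STAT2 had an adjusted p of 0.0265, so that 3 of 9 were higher. The block called 448 of all 3073 tested genes higher and 1670 lower. TMM rescaling, with a median shift of 0.50, called 5 of 9 higher with MD-224, OAS2 (1.93), MX1 (1.13), ISG15 (0.78), STAT2 (0.75) and TMEM173 (0.63), and 0 lower, with RSAD2 (0.01) and TLR3 (0.30) changing direction. Among all 3073 tested genes it called 847 higher and 943 lower.

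After NCS the order of the compounds differed by gene. With NCS + MD-224, 5 of the 9 genes were lower than with NCS + MI-1061, against 54.7% of all tested genes. TMEM173 was at 0.460-fold (0.383 to 0.551, adjusted p = 1.50e-06), TRIM22 at 0.559-fold (adjusted p = 0.000266), TLR3 at 0.586-fold (adjusted p = 0.00609, overlapping libraries), IFI16 at 0.685-fold (adjusted p = 0.0143) and STAT2 at 0.697-fold (0.592 to 0.820, adjusted p = 0.000798). RSAD2 was 3.92-fold higher with NCS + MD-224 (1.21 to 12.7, adjusted p = 0.0466, overlapping libraries), against 0.748% of all tested genes higher. The test was not passed by ISG15 (interval 0.546 to 1.15-fold), MX1 (0.807 to 2.30) or OAS2 (0.968 to 4.49, adjusted p = 0.0963). Their median log2 difference was -0.52 for the 9 genes and -0.67 for all.

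RSAD2 depended on single libraries. Its log2 difference was 1.97, and its call was lost without NCS + MD-224 replicate 2 (2.19, adjusted p = 0.0602) or 3 (1.29, 0.225), or NCS + MI-1061 replicate 1 (1.77, 0.124) or 3 (1.58, 0.158). OAS2 was higher with NCS + MD-224 without NCS + MI-1061 replicate 2 (1.69, 0.0107) and with the replicate block (0.00349), which also called ISG15 lower (0.0291). TMM rescaling, with a median shift of 0.66, called RSAD2 (2.62), OAS2 (1.72) and MX1 (1.11) higher and TMEM173 (-0.46, adjusted p = 0.00563) lower, 3 and 1 of 9, while ISG15 (0.33), STAT2 (0.15) and IFI16 (0.12) changed direction. Of all 3073 tested genes it called 357 higher and 552 lower. TMEM173 was lower with MD-224 after NCS on both scales.

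**Figure D4:**
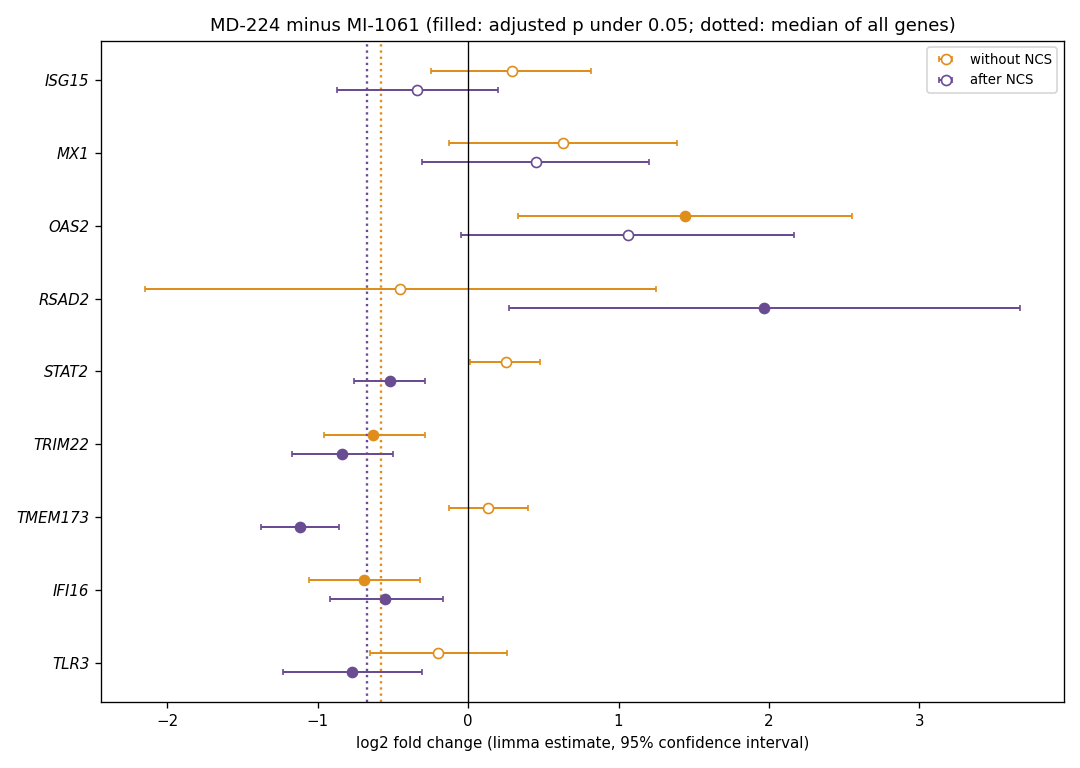
Log2 fold change of MD-224 over MI-1061 (horizontal axis, limma estimate with 95% interval) for each gene (vertical axis), without NCS and after NCS; filled points have an adjusted p under 0.05 and dotted lines mark the median of all tested genes (-0.58 and -0.67). OAS2 and MX1 lie right of 0 in both settings, OAS2 filled only without NCS, and TMEM173 and STAT2 move from right of 0 to left of it.

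NCS was also compared within each compound. On top of MI-1061, NCS raised 6 of the 9 genes, against 55.9% of all tested genes, and lowered 0, against 10.1%, with 0 lower at an unadjusted p under 0.05. OAS2 rose 3.55-fold (1.65 to 7.64, adjusted p = 0.00562), TMEM173 3.06-fold (2.55 to 3.68, adjusted p = 1.40e-08), MX1 2.79-fold (adjusted p = 0.00158), STAT2 2.09-fold (1.78 to 2.47, adjusted p = 3.46e-07), ISG15 1.95-fold (adjusted p = 0.00306) and TLR3 1.45-fold (adjusted p = 0.0388, overlapping libraries). TRIM22 (1.06-fold, adjusted p = 0.646) and IFI16 (0.966-fold, 0.815) did not pass, and RSAD2 was at 3.31-fold (1.02 to 10.8, 0.0687). On the log2 scale the median difference was 1.07 for the 9 genes and 0.71 for all. The TLR3 call was lost when only the compared groups were fitted (0.53, adjusted p = 0.0749), and without NCS + MI-1061 replicate 2 (0.31, 0.234), MI-1061 replicate 1 (0.42, 0.14) or MI-1061 replicate 3 (0.47, 0.110), and OAS2 went from a log2 difference of 1.83 to 1.2 (0.0475) without NCS + MI-1061 replicate 2. With TMM rescaling, a median shift of -0.62, TMEM173 (1.00) and STAT2 (0.45) were called higher and IFI16 (-0.67) and TRIM22 (-0.53, turned from 0.09) lower, 2 of 9 each, and TLR3 (-0.08) changed direction. On that scale 929 of all 3073 tested genes were higher and 729 lower.

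On top of MD-224, NCS raised 5 of the 9 genes, against 39.0% of all tested genes. RSAD2 rose 17.8-fold (5.47 to 57.8, adjusted p = 0.000746), OAS2 2.72-fold (adjusted p = 0.0366, overlapping libraries), MX1 2.46-fold (1.46 to 4.15, adjusted p = 0.00868), TMEM173 1.28-fold (adjusted p = 0.0297) and STAT2 1.23-fold (adjusted p = 0.0429). ISG15 (1.26-fold, adjusted p = 0.302), TRIM22 (0.917-fold, 0.550), IFI16 (1.07-fold, 0.688) and TLR3 (0.972-fold, 0.896) did not pass. The median log2 difference was 0.34 for the 9 genes and 0.45 for all. RSAD2 was at a log2 difference of 4.15, and at 3.47 (adjusted p = 0.00563) without NCS + MD-224 replicate 3.

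Only MX1 and RSAD2 of these 5 stayed called with every library left out in turn. The STAT2 call was lost without NCS + MD-224 replicate 1 (adjusted p = 0.121) or 2 (0.110), or MD-224 replicate 1 (0.152) or 3 (0.103). That of TMEM173 was lost without NCS + MD-224 replicate 1 (0.101) or 3 (0.0556), or MD-224 replicate 1 (0.14), and that of OAS2 without NCS + MD-224 replicate 2 (0.0883) or 3 (0.125), or MD-224 replicate 1 (0.129) or 3 (0.104). Fitting only the compared groups also lost the calls of STAT2 (0.0968) and TMEM173 (0.0693), for 3 of 9 higher. That fit called 1021 of 3007 tested genes higher. With TMM rescaling, a median shift of -0.45, RSAD2 (3.72) was called higher and TRIM22 (-0.57) lower, 1 of 9 each, and STAT2 (-0.15) and TMEM173 (-0.09) changed direction.

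Whether a compound acted differently after NCS was tested as an interaction. For MI-1061, TMEM173 had a positive interaction (log2 0.71, interval 0.34 to 1.09, adjusted p = 0.00364): MI-1061 raised it 1.4-fold without NCS and 2.29-fold after it. TRIM22 had a negative one (log2 -0.75, interval -1.22 to -0.28, adjusted p = 0.0121), with 5.42-fold and 3.22-fold. That is 1 of 9 genes in each direction, against 23.5% and 20.8% of all tested genes. For STAT2 the interaction was -0.04 (interval -0.38 to 0.29, adjusted p = 0.846). TMM rescaling kept both calls (0.71 and -0.75).

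For MD-224, STAT2 (log2 -0.81, interval -1.15 to -0.48, adjusted p = 0.00494) and TRIM22 (-0.96, interval -1.43 to -0.49, adjusted p = 0.0128) had negative interactions, 2 of 9 against 7.19% of all tested genes. STAT2 was at 2.10-fold with MD-224 without NCS and at 1.2-fold after it, and TRIM22 at 3.51-fold and 1.80-fold. A positive interaction was called by limma for 0 of the 9, at an unadjusted p under 0.05 also for 0, against 4.07% of all. TMEM173 was at -0.54 (interval -0.91 to -0.17, adjusted p = 0.0568), at 0.0269 without MD-224 replicate 1 (-0.65), at 0.0487 with genes of a mean of at least 50 and at 0.0283 with the replicate block. TMM rescaling gave -0.65 for STAT2 (adjusted p = 0.0147) and -0.79 for TRIM22 (0.0304).

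ISG15, MX1 and OAS2 also varied with the replicate number. Replicate 1 was the lowest of its group in 6 of 6 groups for each of these 3 effectors, as for 61 of 3074 genes (1.98%), and in 5 groups for RSAD2. Replicate 2 was the highest in 5 of 6 groups for ISG15, MX1, OAS2, RSAD2, STAT2 and IFI16 and in 6 for TLR3, and for 15.4% of all genes it was the highest in 5 or 6. What the number stands for is not given in the labels.

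**Figure D5:**
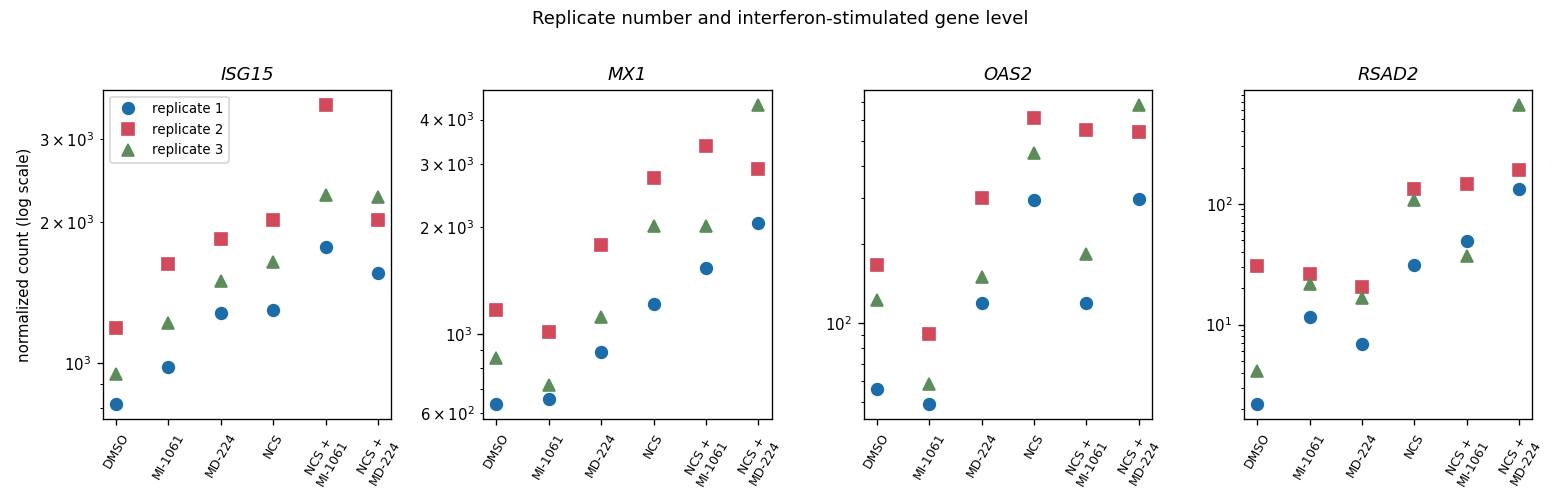
Normalised count (vertical axis, log scale) of ISG15, MX1, OAS2 and RSAD2 by group (horizontal axis), with markers for the replicate number. Replicate 1 is lowest in 6 of 6 groups for ISG15, MX1 and OAS2.

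The genes most like each of the 9 were taken as those with the highest Pearson's r of log2 values over the 18 libraries, among 2605 other genes with a mean of at least 50. Since the libraries share their groups and their choice of genes, r is a description. MX1, OAS2 and RSAD2 were like one another: OAS2 was the nearest to MX1 (r = 0.929) and RSAD2 the third (0.909), MX1 was the nearest to both, and GPR108 (0.911), PLXNA3 (0.900) and C3 (0.893) came next. STAT2 was nearest to BTBD19 (0.981), LRP1 (0.98) and OPTN (0.976), and TMEM173 to KCTD11 (0.977), ZDHHC9 (0.974) and CRYAB (0.974). TRIM22 was nearest to TP53TG1 (0.979), SESN1 (0.973) and PHPT1 (0.973), of which SESN1, a stress-response sestrin, is a known p53 target. ISG15 was nearest to PRDX5 (0.959), IFI16 to RGS16 (0.960) and TLR3 to SNAPC5 (0.945).

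Wider lists of the pathway, without these 9, were mostly not among the listed genes: 9 of 78 interferon-stimulated genes, 6 of 44 sensors and adaptors, and 3 of 31 genes of interferon signalling were in the table, and the rest are not analysed here. Of the 9 interferon-stimulated genes, NCS raised 6 (54.0% of all tested genes), MI-1061 6 (67.6%) and MD-224 5 (39.9%) over DMSO, and after NCS MI-1061 raised 4 (70.5%) and MD-224 raised 0 by limma (15.1%), with 0 at an unadjusted p under 0.05. Their median log2 differences in these 5 comparisons were 0.72, 0.90, 0.38, 0.94 and 0.06, beside 0.66, 1.00, 0.48, 0.97 and 0.30 for all genes. NCS raised IFI30, a lysosomal thiol reductase, 2.12-fold (adjusted p = 0.000937), APOL2 1.95-fold (0.000377), HELZ2 1.65-fold (0.00220) and PML, the scaffold of nuclear bodies, 1.6-fold (0.000403). MI-1061 after NCS raised TRIM38 2.22-fold (adjusted p = 3.84e-07), PML 1.92-fold (5.37e-06), SP110 1.91-fold (0.000580) and LGALS9 2.19-fold (0.0396). With NCS + MD-224, 4 of the 9 were lower than with NCS + MI-1061, against 54.7% of all tested genes.

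Of the 6 sensors and adaptors, NCS raised 2 over DMSO (54.0% of all tested genes), MI-1061 raised 4 (67.6%) and lowered 1 (4.46%), and MD-224 raised 4 (39.9%). After NCS, MI-1061 raised 6 (70.5%) and MD-224 raised 1 (15.1%). NLRP1, an inflammasome sensor, averaged 711 in DMSO, 1537 with MI-1061, 1594 with NCS, 9292 with NCS + MI-1061 and 2914 with NCS + MD-224. It rose 5.83-fold with MI-1061 after NCS (adjusted p = 4.84e-11) and 1.81-fold with MD-224 after NCS (0.000108), and was the 1 called there. NLRX1, a mitochondrial member of the same family, rose 2.82-fold (adjusted p = 4.50e-06), TRIM32 1.93-fold (5.51e-06) and NLRP3 2.57-fold (0.00142) with MI-1061 after NCS. After NCS the 6 had a median log2 difference of 1.29 for MI-1061 and 0.34 for MD-224, where all genes had 0.97 and 0.30. TICAM1 (TRIF), the adaptor of TLR3, rose 3.01-fold with NCS on top of MI-1061 (adjusted p = 1.97e-07). It rose 1.54-fold with NCS over DMSO (0.00379) and was the 1 sensor or adaptor that fell with MI-1061 alone, to 0.732-fold (0.017), a value named after it was seen. TLR9, the endosomal receptor for DNA, went the other way from NLRP1, with means of 6.75 in DMSO, 110 with MI-1061, 15.4 with NCS and 37.0 with NCS + MI-1061, and an interaction of NCS and MI-1061 of 0.163-fold (adjusted p = 0.00277). That of NLRP1 was 2.69-fold (8.25e-06). TLR9 was near the floor, at 4.377, 7.688 and 8.185 in the DMSO libraries and 15.7, 22.11 and 8.487 with NCS. Its interaction therefore rests on low values. Of the 3 signalling genes, MI-1061 after NCS raised 3 (70.5% of all tested genes), among them STAT3, 2.20-fold (adjusted p = 3.60e-07), and MD-224 after NCS raised 0 by limma (15.1%), with 2 at an unadjusted p under 0.05. With TMM rescaling, NCS raised 0 of the 9 interferon-stimulated genes, MI-1061 raised 1 and lowered 4, and MD-224 raised 0 and lowered 1. MI-1061 after NCS then raised 0 of the 9 interferon-stimulated genes, 1 of the 6 sensors and 0 of the 3 signalling genes, and lowered 2, 1 and 1. Of all 3073 tested genes on that scale, NCS raised 455 and lowered 468, MI-1061 942 and 923, and MD-224 327 and 357. MI-1061 after NCS raised 733 and lowered 592.

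Markers of other cells were also looked at, since such cells express interferon-stimulated genes. Of 10 haematopoietic markers 3 were listed, CD68, ITGAM and LAPTM5, with a summed level of 440 to 1111 in DMSO, 2412 to 3052 with MI-1061, 783 to 1085 with MD-224, 2302 to 2498 with NCS, 4852 to 4962 with NCS + MI-1061 and 3418 to 4506 with NCS + MD-224. With MI-1061 alone, ITGAM rose 17.7-fold (adjusted p = 9.55e-07) and LAPTM5 20.5-fold (1.21e-08), and CD68 was at 1.13-fold (0.584). Of 3 plasmacytoid dendritic markers IL3RA was listed, with 42.0 to 50.9 in DMSO, 624 to 748 with MI-1061, 60.7 to 161 with MD-224, 94.6 to 130 with NCS, 471 to 651 with NCS + MI-1061 and 112 to 204 with NCS + MD-224. Osteoblast markers in the table were COL1A2, SPP1 and SPARC, 3 of 10, with a sum of 70300 to 87980 in DMSO, 81990 to 136600 with MI-1061, 107800 to 151200 with MD-224, 143600 to 170900 with NCS, 165700 to 190900 with NCS + MI-1061 and 166700 to 196800 with NCS + MD-224. Means in DMSO and with MI-1061 were 63890 and 97560 for SPARC, 765 and 1713 for SPP1, and 14390 and 9783 for COL1A2. Of the 3, MI-1061 raised 2 over DMSO (67.6% of all tested genes) and lowered 0 by limma (4.46%), with 1 lower at an unadjusted p under 0.05. The other markers are not analysed here, and the part of other cells in these results was not tested.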

How the data were processed

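For 18 libraries the authors deposited normalised counts, a signal in which the reads of a gene are scaled by 1 factor per library. GRCh38, DESeq2 2.11.40.6, HISAT2 2.0.5.2 and featureCounts 1.6.3 appear in the submitters' processing notes with no role given. Some treatment labels write the inhibitor with other digits than the titles, which were followed. Genes with a value of at least 10 in at least 3 libraries (3073 of 3074) were fitted as log2(value + 1) with limma 3.58.1 (R 4.3.3), with a trended variance and 1 fit over all 6 groups. Tests were two-sided, p-values were adjusted by Benjamini-Hochberg over all tested genes, calls were under 0.05, and folds are on the log2(value + 1) scale. The fit was tested on simulated data.

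Read counts were recovered in 13 libraries, where every value of up to 2000 reads was whole within 0.01. In the other 5, all with NCS, values were whole multiples of a step too, but the smallest was 2 to 6 steps, so that 1 step could not be shown to be 1 read. For that reason edgeR 4.0.16 and DESeq2 1.42.0 were used only for the 9 libraries that had no NCS. Alternatives were a pseudocount of 5, no filter, a mean of at least 50, TMM scaling on the listed genes, only the compared groups, a replicate block and leaving out each library. Libraries of the same number in different groups deviated together: every such correlation was above 0.1 (0.102 to 0.472) in the 7 comparisons other than NCS against DMSO (0.0627 to 0.297), NCS with MI-1061 (0.0197 to 0.357) and the interactions. This is where the pairing comes from, and the labels do not state it.

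The genes and lists were chosen with earlier results of these data known. The 9 genes were named in every comparison, and of each wider list up to 4 with the smallest p. Sequences are from RefSeq (GRCh38.p14).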

Additional observations from a re-analysis of the deposited data

Results flagged for a closer look

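The effect of a compound differed after NCS from its effect without NCS for 4 gene and compound pairs, by limma's test of the interaction. With MI-1061, the interaction of TMEM173 was 0.71 on the log2 scale (adjusted p = 0.00364) and that of TRIM22 was -0.75 (adjusted p = 0.0121). With MD-224, that of STAT2 was -0.81 (adjusted p = 0.00494) and that of TRIM22 was -0.96 (adjusted p = 0.0128). TRIM22 thus gained less from either compound after NCS than without it, TMEM173 gained more from MI-1061, and STAT2 gained less from MD-224. All 4 calls were kept when any 1 library was left out, with TMM scaling and with a replicate block. Both interactions use the DMSO and NCS libraries, so they are not independent, and MI-1061 and MD-224 were not compared as interactions.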

How the results depend on the processing

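With TMM scaling on the listed genes, the counts higher and lower were 2 and 0 for NCS against DMSO, 1 and 4 for MI-1061, 2 and 0 for MD-224, 1 and 1 for MI-1061 after NCS, 0 and 0 for MD-224 after NCS, 5 and 0 for MD-224 against MI-1061, 3 and 1 for the same after NCS, 2 and 2 for NCS with MI-1061, and 1 and 1 for NCS with MD-224. By its construction this scaling centres the listed genes, each of which has a higher mean with NCS + MI-1061 than with DMSO. The counts over all listed genes on this scale are given at the end of this section. Single-gene differences were recomputed for the calls and for chosen others, not for every gene in every comparison, so further small differences may have turned. Among those recomputed, the log2 differences it reversed were IFI16 (-0.46) and TLR3 (-0.28) with NCS, ISG15 (-0.63), STAT2 (-0.17), TMEM173 (-0.51), IFI16 (-0.06) and TLR3 (-0.18) with MI-1061, and IFI16 (-0.25) with MD-224. After NCS they were ISG15 (-0.42), MX1 (-0.78), STAT2 (-0.21) and IFI16 (-0.26) with MI-1061 and STAT2 (-0.07) with MD-224. Between the compounds they were RSAD2 (0.01) and TLR3 (0.30) without NCS, and ISG15 (0.33), STAT2 (0.15) and IFI16 (0.12) after it. For NCS within a compound they were TLR3 (-0.08) and TRIM22 (-0.53) with MI-1061, and STAT2 (-0.15) and TMEM173 (-0.09) with MD-224.

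The replicate block ended no call of the 9 genes and gave 1 lower for MI-1061 against DMSO, 1 lower for MI-1061 after NCS, 3 higher for MD-224 after NCS, 3 higher for MD-224 against MI-1061 and 2 higher for the same after NCS. Over all 3073 tested genes it called 185 and 32 lower, and 755, 448 and 34 higher, in these comparisons in this order. It also called RSAD2 for NCS with MI-1061 (adjusted p = 0.0142), where the numbers did not meet the rule for pairing. Fitting only the compared groups gave 3 higher for NCS with MD-224, and for NCS with MI-1061 it called RSAD2 (adjusted p = 0.0204) and lost TLR3 (0.0749). Of the log2 differences recomputed, 77 kept direction and side of the threshold without the filter on low values, and 76 with a mean of at least 50, 1 being gained.

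Leaving out 1 library at a time gave ranges of 5 to 7 genes higher for NCS against DMSO, 5 to 6 for MI-1061, 3 to 6 for MD-224, 5 to 6 higher and 0 to 1 lower for MI-1061 after NCS, and 1 to 1 higher for MD-224 after NCS. For MD-224 against MI-1061 it gave 0 to 2 higher and 2 to 2 lower, after NCS 0 to 2 higher and 5 to 5 lower, for NCS with MI-1061 5 to 6 higher and for NCS with MD-224 2 to 5. For the interaction with MI-1061 it gave 1 to 1 higher and 1 to 2 lower, and with MD-224 0 to 0 higher and 2 to 3 lower. Log2 differences that turned ranged from -0.08 to 0.35 for IFI16 with NCS, -0.35 to 0.09 for MX1 with MI-1061, -0.10 to 0.48 for MX1 and -0.88 to 0.15 for RSAD2 with MI-1061 after NCS, -0.24 to 0.09 for IFI16 with NCS and MI-1061 (turned without MI-1061 replicate 2), and -0.21 to 0.03 for TRIM22 with NCS and MD-224 (turned without NCS + MD-224 replicate 3). None of these was called in either fit.

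Over all listed genes, the counts higher and lower moved by more than 1.5 times with TMM scaling in every comparison but the interaction with MI-1061: from 1659 and 40 to 455 and 468 for NCS, 2076 and 137 to 942 and 923 for MI-1061, 1225 and 86 to 327 and 357 for MD-224, 2168 and 23 to 733 and 592 for MI-1061 after NCS, 465 and 0 to 116 and 6 for MD-224 after NCS, 381 and 1531 to 847 and 943 for MD-224 against MI-1061, 23 and 1680 to 357 and 552 for the same after NCS, 1717 and 309 to 929 and 729 for NCS with MI-1061, 1198 to 428 higher for NCS with MD-224 (lower from 0.586% to 7.29% of genes), and 125 and 221 to 201 and 127 for the interaction with MD-224. With the replicate block they were 755 higher for MD-224 after NCS, 40 lower for NCS with MD-224, and 212 and 400 for the interaction with MD-224. Fitting only the compared groups gave 763 and 46 for MD-224, 82 lower for MI-1061, 36 lower for MI-1061 after NCS, 11 lower for NCS with MD-224 and 76 higher for the interaction with MD-224, and edgeR gave 44 lower for MD-224. Leaving out 1 library gave as few as 186 higher for MD-224 after NCS (without NCS + MD-224 replicate 1; 283 to 298 without each NCS library), 10 higher for MD-224 against MI-1061 after NCS (without NCS + MD-224 replicate 3), 14 lower for MI-1061 after NCS (without NCS + MI-1061 replicate 2), 7 lower for NCS with MD-224 (without NCS + MD-224 replicate 3) and 53 lower for MD-224 against DMSO (without DMSO replicate 1). For the interaction with MD-224 it gave as few as 63 higher (without NCS + MD-224 replicate 1) and 107 lower (without NCS replicate 3). The cause of these changes was not tested. Depth limits RSAD2 most, with 2 and 4 reads in 2 DMSO libraries.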
